A study of Mus musculus with 12 samples.

Results

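The adrenergic receptor genes examined here are Adra1a, Adra1b, Adra1d, Adra2a, Adra2b, Adra2c and Adrb1. The family was selected on a measured value, because Adra1a had the 4th smallest p for genotype of 18016 tested genes in the same libraries, and its members were then taken by symbol (GENCODE M21), 7 of 54232 gene identifiers in the count table. The question was whether the lower level of Adra1a in the mutants is shared by its relatives. Because Adra1a was picked from the genotype contrast, the genotype differences of all 7 genes are given as a description, and nothing is read from their p values or calls. Other receptor genes of the family were not analysed here.

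The tissue was cortex of C57BL/6J mice aged 12 weeks. The mutants (Tbl1xr1Y446C/Y446C) were homozygous for the Y446C allele of Tbl1xr1, a subunit of the NCoR corepressor complex, and were set against wild-type mice, with 3 females and 3 males in each genotype. The labels name no promoter or cell type that limits the allele. Libraries are named by sex, genotype and animal number. Tbl1xr1 itself averaged 93.5 ± 2.69 CPM in mutants and 105 ± 7.05 CPM in wild-type mice (SD, n = 6 each), where CPM is the count per 1e+06 counts after scaling by TMM, and the counts carry no sequence that could check the genotype.

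Noradrenaline and adrenaline act through G protein-coupled receptors of the alpha-1, alpha-2 and beta classes. Alpha-1 receptors couple to Gq and phospholipase C, alpha-2 receptors to Gi and Go, which lower cyclic AMP and open potassium channels, and beta receptors to Gs, which raises cyclic AMP. In the cortex the transmitter is noradrenaline, released by axons whose cell bodies lie in the locus coeruleus of the brainstem, and it acts on arousal, attention and plasticity.

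The members are related in sequence, and the stretches below show how far 2 of them can share bases, and hence reads. They are the longest runs of identical bases, in capitals, that any pair of members shares in the coding sequence (26 bases, Adra2a and Adra2c) and that Adra1a shares with another member (20 bases, with Adra1d). Each is shown 5′ to 3′ on the coding strand (GRCm38, GENCODE M21 transcripts) with 12 flanking bases on each side in lower case. Adra2a lies at chr19:54046665-54046714 (plus strand), Adra2c at chr5:35280345-35280394 (plus), Adra1a at chr14:66638343-66638386 (plus) and Adra1d at chr2:131561150-131561193 (minus).
Adra2a: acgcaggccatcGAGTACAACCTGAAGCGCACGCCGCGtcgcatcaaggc
Adra2c: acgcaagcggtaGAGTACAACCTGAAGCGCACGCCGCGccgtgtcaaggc
Adra1a: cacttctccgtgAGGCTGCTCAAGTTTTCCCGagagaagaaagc
Adra1d: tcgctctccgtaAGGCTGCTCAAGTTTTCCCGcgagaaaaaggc
Over the 21 pairs the longest shared run was 10 to 26 bases, against reads of 150 bases, so the coding sequences of the members are distinguishable at the read length used. The other 6 members overlap no annotated gene. Adra1d (chromosome 2, 131545850 to 131562283) overlaps Gm14285, an antisense gene on the other strand, and whether the counting used strand is not given in the sources used here.

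Depth was 21238427 to 32669138 gene counts in 11 of the 12 libraries, with a mitochondrial share of 5.23% to 10.4%. Female mutant 3 held 3748515 counts with a mitochondrial share of 31.6%, and 3 counts, the floor used here for a count of 0, stood for 1.16 CPM in it against 0.0861 to 0.137 CPM in the others. The genotype difference of each receptor gene is therefore given with and without it. Floors and counting intervals cover counting error alone, and in bulk cortex fewer cells that express a gene and less RNA per cell cannot be told apart. The labels name separate mice, and all libraries of 1 group differed by more than counting error.

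Adra1a (ENSMUSG00000045875; GRCm38 chromosome 14, 66635251 to 66771168, plus strand) encodes the alpha-1A receptor, which signals through Gq. Among mutants it stood at 13.2, 13.9 and 13.7 CPM in females 1, 3 and 6 and at 14.6, 12.7 and 13.7 CPM in males 7, 10 and 27. Among wild-type mice it stood at 18.5, 17.9 and 16.7 CPM in females 2, 4 and 5 and at 18.4, 17.1 and 17.9 CPM in males 8, 12 and 13. The groups did not overlap, with 14.6 CPM in the highest mutant and 16.7 CPM in the lowest wild-type mouse. These values rest on 321 to 444 counts in mutants other than female mutant 3, which had 36, and on 403 to 518 counts in wild-type mice. The mean was 13.6 ± 0.645 CPM in mutants and 17.7 ± 0.723 CPM in wild-type mice (SD, n = 6 each), a ratio of 0.769 and a log2 fold change of -0.38 (SE 0.07). Females and males each gave -0.38 (SE 0.11 in each), and the value without female mutant 3 was -0.39 (SE 0.06). Of all 18016 tested genes, 0.294% had all 6 mutants below all 6 wild-type libraries, and 0.599% had the 5 remaining mutants below them.

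**Figure D1:**
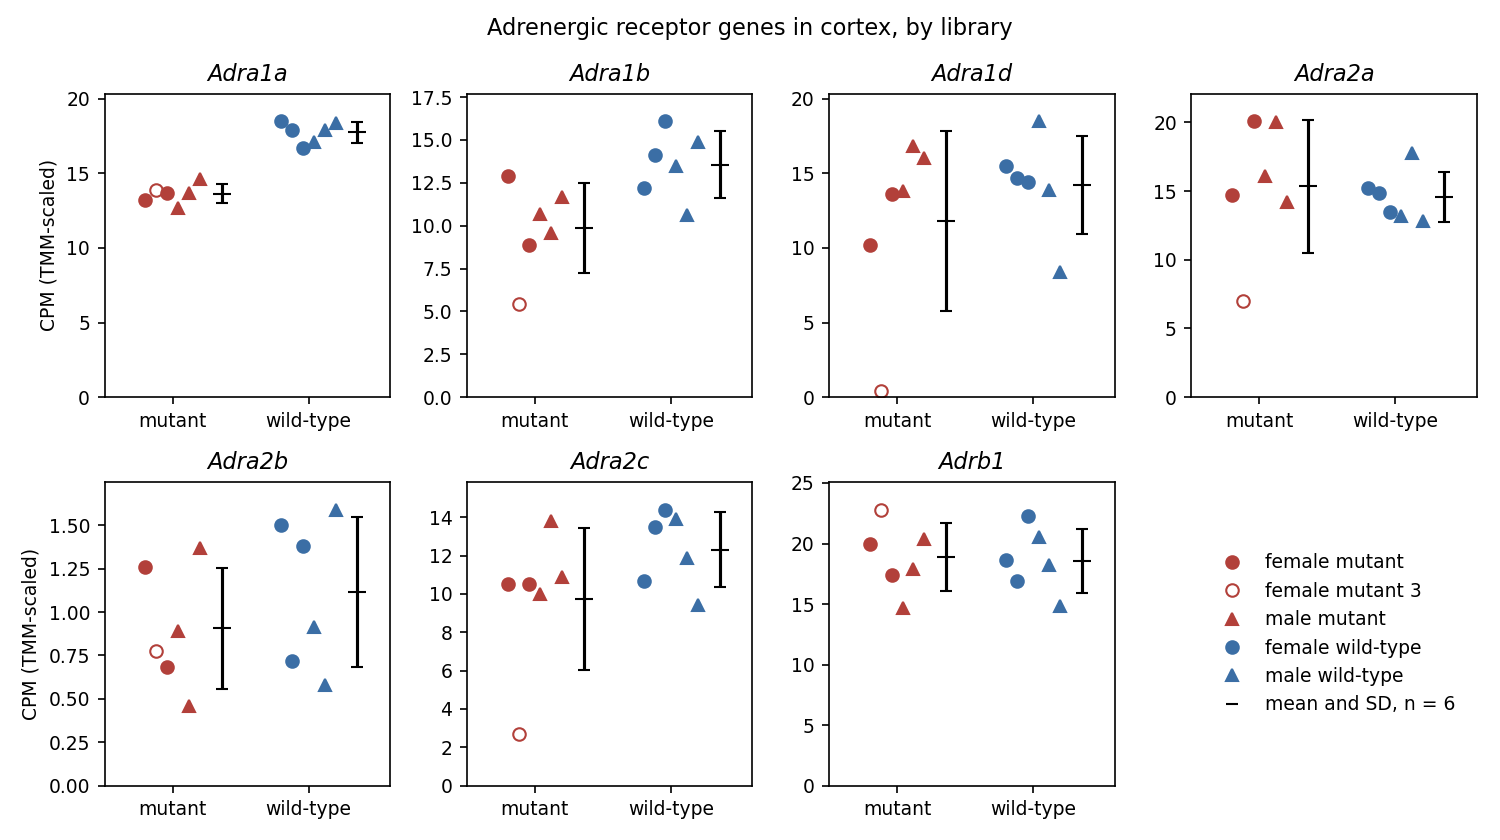
CPM of each receptor gene in the 12 libraries, with mutants left of wild-type mice, circles for females, triangles for males, an open circle for female mutant 3 and a bar for the mean and SD of 6 libraries. The groups are apart for Adra1a alone, and female mutant 3 is the lowest library for Adra1b, Adra1d, Adra2a and Adra2c and the highest for Adrb1.

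Adra1b (ENSMUSG00000050541; chromosome 11, 43774606 to 43901210, minus strand), the alpha-1B receptor gene, was the nearest to Adra1a in the size of its difference. In mutants it stood at 12.9, 5.42 and 8.90 CPM in females 1, 3 and 6 and at 11.7, 10.7 and 9.57 CPM in males 7, 10 and 27. In wild-type mice it stood at 12.2, 14.1 and 16.1 CPM in females 2, 4 and 5 and at 14.9, 13.5 and 10.6 CPM in males 8, 12 and 13. The groups overlapped, with 3 mutants below the lowest wild-type library and 0 above the highest. The mean was 9.85 ± 2.60 CPM in mutants and 13.6 ± 1.96 CPM in wild-type mice (SD, n = 6 each), a log2 fold change of -0.41 (SE 0.16). Without female mutant 3 it was -0.33 (SE 0.12), and the mean of the mutants was 10.7 ± 1.6 CPM (SD, n = 5).

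Adra1d (ENSMUSG00000027335, minus strand) is the alpha-1D receptor gene. Mutants stood at 10.2, 0.387 and 13.6 CPM in females 1, 3 and 6 and at 16.0, 13.8 and 16.8 CPM in males 7, 10 and 27. Wild-type mice stood at 15.5, 14.7 and 14.4 CPM in females 2, 4 and 5 and at 8.36, 18.5 and 13.9 CPM in males 8, 12 and 13. In females all 3 mutants lay below all 3 wild-type mice, as they did for 12.4% of all tested genes, whereas in males the groups overlapped. The log2 fold change was -0.21 (SE 0.32) over 12 libraries and -0.04 (SE 0.17) without female mutant 3, whereas leaving out male wild-type 8 gave -0.37. In females it was -0.62 (SE 0.44), and -0.32 (SE 0.25) without female mutant 3. In that library Adra1d had 1 count, which is 0.0275 of the mean CPM of the other 5 mutants (exact Poisson 95% interval 0.000696 to 0.153), where that mean would give 36.4 counts.

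Of the alpha-2 genes, Adra2a (ENSMUSG00000033717; chromosome 19, 54044151 to 54048982, plus strand) encodes the main inhibitory autoreceptor of noradrenaline neurons, which is also found on cortical neurons and is the target of clonidine and guanfacine. In mutants it stood at 14.7, 6.97 and 20.1 CPM in females 1, 3 and 6 and at 14.2, 16.1 and 20 CPM in males 7, 10 and 27. In wild-type mice it stood at 15.2, 14.9 and 13.5 CPM in females 2, 4 and 5 and at 12.8, 13.2 and 17.8 CPM in males 8, 12 and 13. Of the mutants, 2 lay above the highest wild-type library and 1, female mutant 3, below the lowest. The log2 fold change was 0.12 (SE 0.18), and 0.23 (SE 0.12) without female mutant 3, the opposite sign to Adra1a in both sets.

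Adra2c (ENSMUSG00000045318; chromosome 5, 35278319 to 35281763, plus strand) encodes the alpha-2C receptor, which is abundant in the striatum, the region beneath the cortex. Mutants stood at 10.5, 2.71 and 10.5 CPM in females 1, 3 and 6 and at 10.9, 9.98 and 13.8 CPM in males 7, 10 and 27, against 10.7, 13.5 and 14.4 CPM in wild-type females 2, 4 and 5 and 9.45, 13.9 and 11.9 CPM in wild-type males 8, 12 and 13. In females the 3 mutants lay below the 3 wild-type mice, as for 12.4% of all tested genes, while the males overlapped with 0 mutants below the lowest wild-type male. The log2 fold change was -0.27 (SE 0.21) over all libraries and -0.14 (SE 0.13) without female mutant 3, in which Adra2c had 7 counts. It was -0.03 (SE 0.28) in males. Leaving out male wild-type 8, the lowest wild-type library for Adra2c, gave -0.35 (SE 0.21) over both sexes.

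Adra2b (ENSMUSG00000058620; chromosome 2, 127363208 to 127367221, plus strand), the alpha-2B receptor gene, was the scarcest member, with 12 to 32 counts in the 5 deep mutant libraries and 13 to 42 in wild-type libraries, and 2 counts in female mutant 3. Its mean was 0.905 ± 0.347 CPM in mutants and 1.11 ± 0.432 CPM in wild-type mice (SD, n = 6 each). The groups overlapped, and the log2 fold change of -0.27 (SE 0.33), or -0.25 (SE 0.33) without female mutant 3, was smaller than its error.

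Adrb1 (ENSMUSG00000035283; chromosome 19, 56722199 to 56733113, plus strand) encodes the beta-1 receptor, which couples to Gs. It ranged from 14.7 to 22.8 CPM in mutants, with a median of 19.0 CPM, and from 14.8 to 22.3 CPM in wild-type mice, with a median of 18.4 CPM. The ranges almost coincided. Its log2 fold change was 0.009 (SE 0.12), and -0.03 (SE 0.11) without female mutant 3.

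Over the 7 genes, all of which passed the filter on low counts, 5 were lower in mutants and 2 higher, and the median of their log2 fold changes was -0.27. Without female mutant 3, 6 were lower and 1 higher, with a median of -0.14. Of the 6, Adra1d at -0.04 (SE 0.17) and Adrb1 at -0.03 (SE 0.11) were near 0. Over the 18461 genes tested without that library the median was 0, with 9068 lower and 9393 higher. Over all 18016 genes of the full set, 9440 were lower and 8576 higher. The 2 genes at an unadjusted p under 0.05 were Adra1a and Adra1b, in edgeR's quasi-likelihood test with that library (713 of 18016 genes in all) and without it (1378 of 18461). Adra1a was itself chosen by this p.

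EdgeR called 0 of the 7 genes at an adjusted p of 0.05, with all 12 libraries (0.00555% of all genes called) and without female mutant 3 (0.0108%). Adra1a was the member called by DESeq2 (0.161% of genes called), by limma-voom with library weights (0.122%), and by DESeq2 without female mutant 3 (0.287%). Limma-voom without weights, and with weights but without female mutant 3, called 0. The 6 other members were called by none of these. Since Adra1a was picked from this contrast, its calls are a description.

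**Figure D2:**
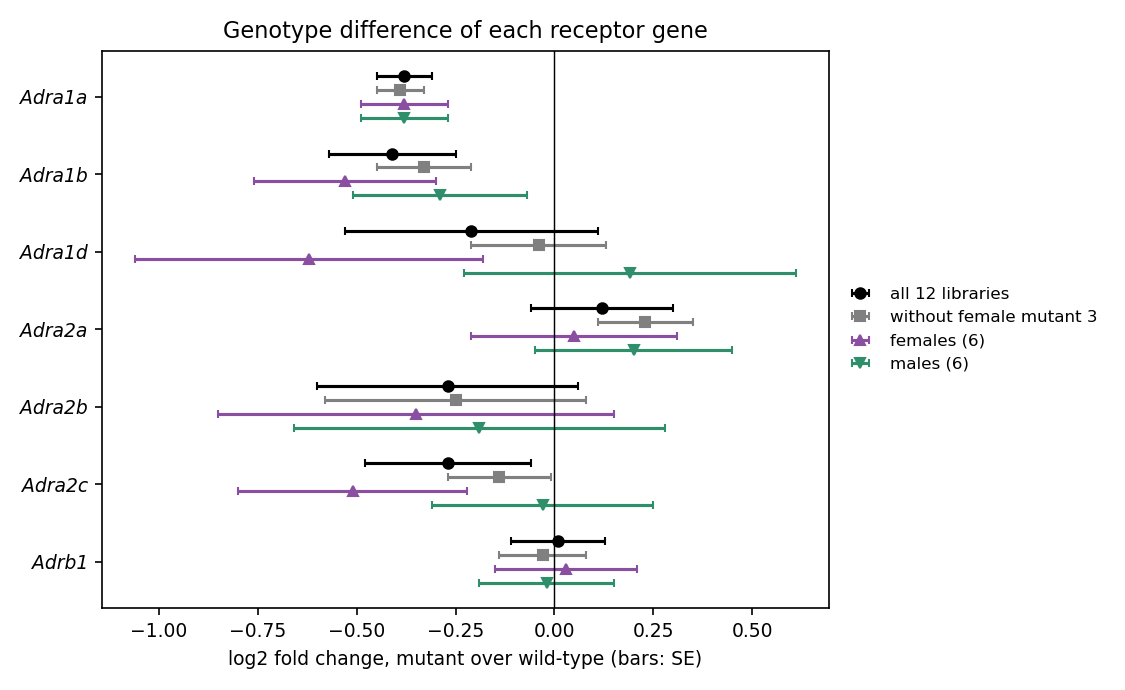
Log2 fold change of mutant over wild-type cortex with its SE for each gene, from all 12 libraries, from 11 libraries without female mutant 3, and in females and males. Adra1a sits at -0.38 or -0.39 in the sets with 11 or 12 libraries, Adra1b lies near it with a wider error, and Adra1d moves from -0.21 to -0.04 once female mutant 3 is left out.

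What set female mutant 3 apart differed from gene to gene. Its level relative to the mean of the other 5 mutants was -3.44 on the log2 scale for Adra1d, -1.71 for Adra2c, -1.18 for Adra2a and -0.87 for Adra1b, with 1 CPM added to each value. For Adra2b, Adra1a and Adrb1 it was -0.12, 0.03 and 0.32. The content of G and C in the longest transcript was 65.4% for Adra1d, 65.5% for Adra2c, 58.6% for Adra2a and 54.5% for Adra1b, against 50.1% for Adra1a and 53.6% for Adra2b. Adrb1, at 58.8%, did not follow this order. Over all genes with a mean of at least 5 CPM, the median difference of female mutant 3 went down in steps from 0.72 in the 1163 genes of lowest content to -1.28 in the 1163 genes of highest content. The gap between these ends was -2.0 in female mutant 3, and -0.35 to 0.27 in the other 11 libraries when each was set against the other deep libraries of its genotype. The part of base composition in the members' values was not tested.

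**Figure D3:**
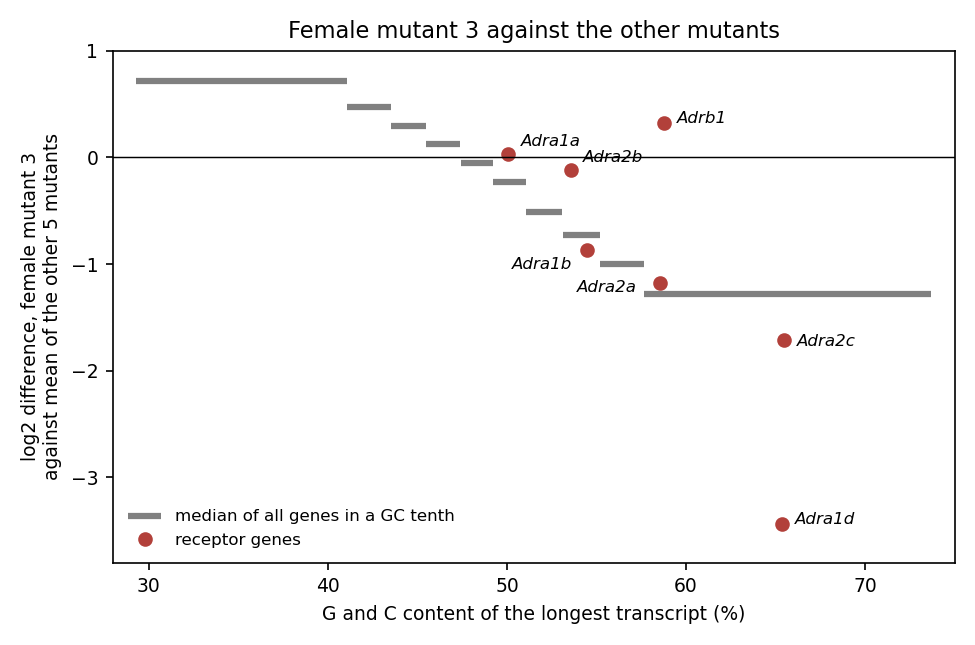
Log2 difference of female mutant 3 from the mean of the other 5 mutants (1 CPM added) against the G and C content of the longest transcript, with receptor genes as points and the median of each of 10 equal classes of genes with a mean of at least 5 CPM as a grey bar spanning its content. The bars step down from 0.72 to -1.28, Adra1d and Adra2c lie lowest at -3.44 and -1.71, and Adrb1 lies above 0 at 0.32. Adra2b, at a mean of 1.01 CPM, is under the 5 CPM limit of the classes.

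Levels of different genes were compared per length, as CPM per kilobase of merged annotated exons, in the 6 wild-type libraries. Adra1d was highest at 7.49 ± 1.74, followed by Adrb1 (5.48 ± 0.779), Adra1b (4.02 ± 0.580), Adra2c (3.57 ± 0.570), Adra2a (3.01 ± 0.381), Adra1a (2.03 ± 0.0828) and Adra2b (0.277 ± 0.108; SD, n = 6 each). Neighbours in this order overlapped in range from Adra1d down to Adra2a, whereas the highest Adra1a library (2.12) lay below the lowest Adra2a library (2.64), and the highest Adra2b library (0.396) below the lowest Adra1a library (1.91). The place of Adra1a depends on which length is right. Its 6 annotated transcripts merge to 8728 bases while the longest has 4282, and by the longest transcript Adra1a reached 4.14 ± 0.169 CPM per kilobase in wild-type mice and came 3rd, beside Adra1b at 4.08 ± 0.589. The SD within groups of the 11 deep libraries, on the log2 scale, was 0.074 for Adra1a, whose choice by a small p favours a small spread, and 0.216 for Adrb1, 0.230 for Adra2c, 0.233 for Adra2a, 0.234 for Adra1b, 0.337 for Adra1d and 0.634 for Adra2b.

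**Figure D4:**
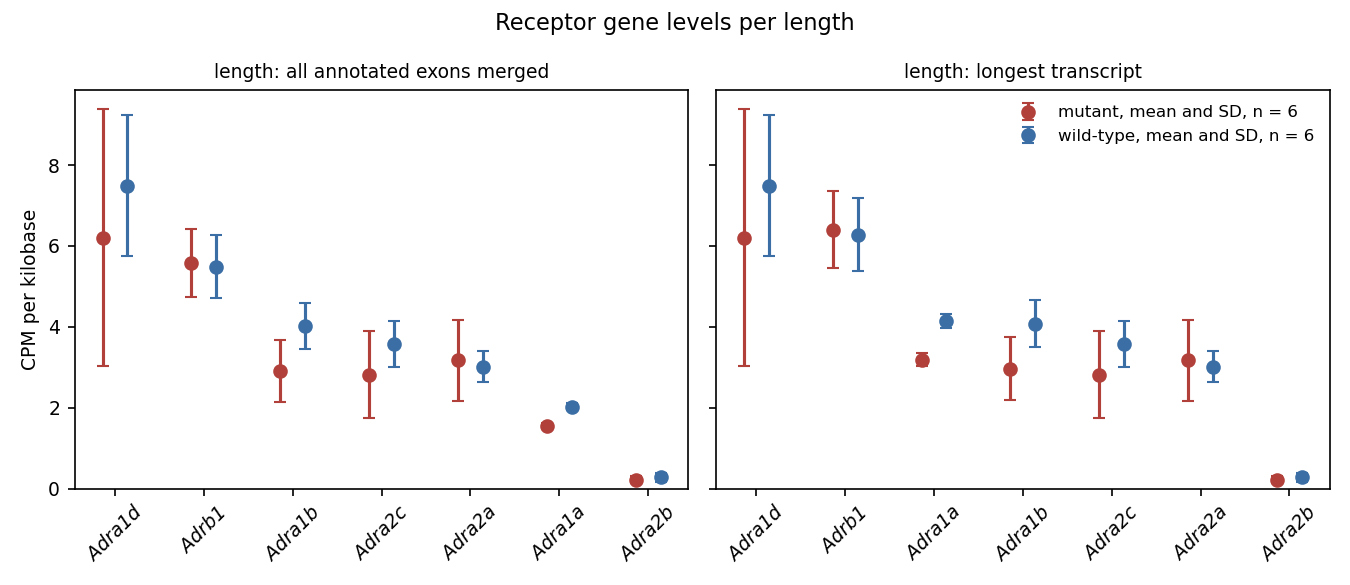
CPM per kilobase of each receptor gene, mutants left of wild-type mice, as mean and SD of 6 libraries, with the merged exons (left panel) or the longest transcript (right panel) as length. Adra1d and Adrb1 stand highest and Adra2b lowest in both panels, and Adra1a moves from 6th to 3rd place in wild-type mice.

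Sex was not used to choose the members, so it was tested. EdgeR's quasi-likelihood test with genotype as a term called 0 of the 7 genes for sex (0.0389% of 18016 genes called), with 0 members at an unadjusted p under 0.05. Adra1d was the furthest from 0, at 11.5 ± 5.73 CPM in females and 14.5 ± 3.52 CPM in males (SD, n = 6 each), a log2 fold change of female over male of -0.27 (SE 0.32, adjusted p = 0.897 in edgeR's test), and -0.09 (SE 0.17) without female mutant 3. Adrb1 averaged 19.7 ± 2.49 CPM in females and 17.8 ± 2.57 CPM in males (SD, n = 6 each), with a log2 fold change of 0.13 (SE 0.12). Adra1a averaged 15.7 CPM in both sexes, with a log2 fold change of -0.0089 (SE 0.07). The other 4 lay between -0.11 (SE 0.21) for Adra2c and 0.16 (SE 0.33) for Adra2b.

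The difference in genotype effect between the sexes was tested as an interaction, the effect in females minus that in males. EdgeR called 0 of the 7 genes (0% of 18016 genes called; 0 members at an unadjusted p under 0.05), as did every other tool run. The interaction of Adra1a was -0.0037 (SE 0.15). For Adra1d the log2 fold change in males was 0.19 (SE 0.42), and the interaction of -0.81 (SE 0.61, adjusted p = 0.584 in edgeR's test) became -0.51 (SE 0.33) without female mutant 3. For Adra2c the effects were -0.51 (SE 0.29) in females and -0.03 (SE 0.28) in males, and the interaction of -0.49 (SE 0.41) became -0.26 (SE 0.25). The interactions of the other 4 genes ran from -0.24 (SE 0.32) for Adra1b to 0.05 (SE 0.25) for Adrb1. In males alone the 3 mutants lay below the 3 wild-type mice for Adra1a and for no other member, as they did for 6.62% of all genes.

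Of 45 other genes of noradrenergic signalling 43 were tested. In mutants 19 were higher and 24 lower, the median of their log2 fold changes was -0.04 (-0.01 over all tested genes), and edgeR's test called 0, with 2 at an unadjusted p under 0.05 (713 of 18016 genes in all). Without female mutant 3 the count was 24 higher and 19 lower, with 0 called and 8 at an unadjusted p under 0.05 (1378 of 18461 genes in all). Of the genes of noradrenaline supply and removal 6 of 8 were tested, 5 higher and 1 lower with a median of 0.06, or 4 higher and 2 lower with a median of 0.08 without female mutant 3. Dbh, which makes noradrenaline from dopamine, had 1 to 9 counts in mutants and 1 to 9 in wild-type libraries. Slc6a2, the noradrenaline transporter gene, was at 0 counts in 3 mutant and all 6 wild-type libraries, and male mutant 10 held 15 counts (0.430 CPM), a value singled out after it was seen. Th, which makes the precursor of dopamine, ranged from 0.776 to 7.17 CPM in mutants and from 1.46 to 7.16 CPM in wild-type mice. Ddc, which makes dopamine from that precursor, had a log2 fold change of 0.35 (SE 0.34), and 0.38 (SE 0.34) without female mutant 3. Th and Ddc stood at 7.17 and 13.3 CPM in male mutant 10 and at 0.884 and 4.73 CPM in male mutant 27. The signs in this list may therefore not be independent. Because the cell bodies of the noradrenaline axons lie in the brainstem, counts of the synthesis genes in cortex do not measure noradrenaline supply.

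In the Gq arm that alpha-1 receptors use, 4 of 9 genes were higher and 5 lower, with a median of -0.01, and 6 were higher and 3 lower, with a median of 0.01, without female mutant 3. The protein kinase C gene Prkcb averaged 593 ± 50.8 CPM in mutants and 651 ± 82.4 CPM in wild-type mice, and the IP3 receptor gene Itpr1 averaged 724 ± 81.2 CPM in mutants and 790 ± 104 CPM in wild-type mice (SD, n = 6 each). The Gq gene Gnaq had a log2 fold change of 0.0016 (SE 0.07), and 0.0028 (SE 0.06) without female mutant 3. In the Gi arm of the alpha-2 receptors 5 of 8 genes were higher and 3 lower, with a median of 0.03, and the counts were the same, with a median of 0.01, without female mutant 3. Gnao1 and Gnai3, both of G protein alpha subunits, had the smallest p. Gnao1 gave 0.12 (SE 0.12), and 0.01 (SE 0.08) without female mutant 3, and Gnai3 gave 0.08 (SE 0.08), and 0.07 (SE 0.08) without it.

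In the Gs arm of the beta receptors 3 of 12 genes were higher and 9 lower, with a median of -0.10, and 5 were higher and 7 lower, with a median of -0.05, without female mutant 3. The adenylyl cyclase gene Adcy5, which is most abundant in the striatum, averaged 174 ± 54.4 CPM in mutants and 269 ± 82.1 CPM in wild-type mice (SD, n = 6 each), for which the log2 fold change was -0.61 (SE 0.24, adjusted p = 0.950 in edgeR's test), and -0.47 (SE 0.19) without female mutant 3. Adcy1 gave -0.26 (SE 0.13), and -0.16 (SE 0.07) without it. Of the genes that silence activated receptors 2 of 8 were higher and 6 lower, with a median of -0.13, and 4 were higher and 4 lower, with a median of -0.05, without female mutant 3. Grk5, a receptor kinase gene, averaged 13.6 ± 1.12 CPM in mutants and 16.6 ± 1.88 CPM in wild-type mice (SD, n = 6 each). Its log2 fold change was -0.28 (SE 0.09, adjusted p = 0.950 in edgeR's test), and -0.27 (SE 0.08) without female mutant 3. Rgs4, which speeds the shut-off of Gq and Gi, gave -0.27 (SE 0.13), and -0.31 (SE 0.12) without it.

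Markers of cell types and of neighbouring regions were read beside the receptors, and edgeR called 0 genes of these lists for genotype. Striatal neuron markers were lower in mutants in 9 of 9 genes, a pattern already known from these data. In edgeR's test 6 had an unadjusted p under 0.05 (713 of 18016 genes in all). The 9 markers summed to 270 to 856 CPM in mutants other than female mutant 3 and to 1030 CPM in that library. In wild-type mice they summed to 531 to 1840 CPM. Adra2c and Adcy5, which the striatum expresses, had log2 fold changes of -0.27 and -0.61 beside these markers, neither of them called. Without female mutant 3 the values were -0.14 for Adra2c and -0.47 for Adcy5. Of the mutants, that library had the lowest Adra2c (2.71 CPM, from 7 counts) and the highest striatal sum. Male mutant 27 had the highest Adra2c of the mutants (13.8 CPM) at a sum of 574 CPM. Among wild-type mice, female 5 had the highest Adra2c (14.4 CPM) and the highest sum (1840 CPM). Male 8 had the lowest Adra2c (9.45 CPM) at a sum of 1100 CPM. Whether Adra2c follows the striatal markers was not tested.

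Inhibitory neuron markers numbered 4 higher and 3 lower with a median of 0, and 2 higher and 5 lower with a median of -0.12 without female mutant 3. They summed to 898 to 1000 CPM in the other mutants, 1110 CPM in that library, and 999 to 1210 CPM in wild-type mice. The lower ones were Lamp5 at -0.39, Gad1 at -0.34 (SE 0.10, adjusted p = 0.950 in edgeR's test) and Slc32a1 at -0.24. The higher ones were Pvalb at 0.19, Vip at 0.11, Gad2 at 0.04 and Sst at 0.0014. Gad1 and Gad2 both make GABA, and gave -0.26 (SE 0.06) and -0.18 (SE 0.11) without that library. Excitatory neuron markers numbered 1 higher and 5 lower with and without that library, with medians of -0.05 with it and -0.12 without. They summed to 948 to 1260 CPM in the other mutants, 933 CPM in that library, and 989 to 1260 CPM in wild-type mice. Astrocyte markers numbered 3 higher and 2 lower with a median of 0.22. In edgeR's test 3 of 5 had an unadjusted p under 0.05 (713 of 18016 genes in all). Without female mutant 3 it was 5 of 5 (1378 of 18461). All 5 summed to 4140 to 4530 CPM in the other mutants, 5990 CPM in that library, and 4460 to 4900 CPM in wild-type mice. Slc1a2, at a mean of 3940 CPM, made up most of this sum. Without female mutant 3, Slc1a2 and Aldh1l1 were lower, at -0.18 and -0.15. Gfap, Aqp4 and Gja1 were higher, at 0.56, 0.25 and 0.22.

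Oligodendrocyte markers numbered 2 higher and 3 lower with a median of -0.01, and 5 higher and 0 lower with a median of 0.06 without female mutant 3. Oligodendrocyte precursor markers summed to 172 to 184 CPM in the other mutants, 110 CPM in that library, and 169 to 184 CPM in wild-type mice. Thalamic markers, 2 higher and 4 lower, summed to 85.7 to 352 CPM in the other mutants, 482 CPM in that library, and 152 to 378 CPM in wild-type mice. Meningeal markers numbered 3 higher and 1 lower with a median of 0.22, and microglial markers 1 higher and 4 lower with -0.20. Endothelial and mural markers numbered 2 higher and 4 lower with 0, and hippocampal markers 5 higher and 2 lower with 0.07. Without female mutant 3 these medians were 0.27, -0.09, 0 and 0.06. The counts then stayed the same, except for 3 higher and 3 lower endothelial and mural markers. No marker in these lists was at 0 in all libraries. The part of tissue or cell makeup in the receptor values was not tested.

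Pearson's r of log2 CPM between each receptor and other genes was taken over the 11 deep libraries with the mean of each group removed. It was taken among 13208 genes with a mean of at least 1 CPM. The values below are the highest of that many, over few libraries, where unrelated genes can also reach a high r. They are given without a test, and do not show that a gene varies with a receptor. Adra1a itself varied little (SD 0.074 within groups, log2 scale), and the part of counting error in that spread was not tested. The 5 nearest to Adra1a were Ccbe1 (r = 0.946), Ino80b (0.944), Eya1 (0.910), Smndc1 (0.899) and Zfp629 (0.896). Their genotype differences over all 12 libraries ran from -0.12 for Ino80b to 0.13 for Smndc1 on the log2 scale, so none was near the -0.38 of Adra1a. The nearest to each other member was Nt5e for Adra1b (0.984), Wdpcp for Adra1d (0.981), Rspo2 for Adra2a (0.991), Nipal4 for Adra2b (0.986), Kcnj4 for Adra2c (0.991) and Nus1 for Adrb1 (0.980). Kcnj4, a potassium channel gene, had a genotype difference of -0.57 and Nt5e, which makes adenosine outside cells, one of -0.34. Those of Wdpcp, Rspo2, Nus1 and Nipal4 were -0.09, 0, 0.05 and 0.24.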

How the data were processed

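Messenger RNA of cortex was sequenced as paired reads of 150 bases, per the labels. The authors deposited raw counts per gene, made with Trimmomatic 0.36, HISAT2 2.1.0, HTSeq 0.11 and Cufflinks on GRCm38.p6, per the submitters' processing notes. They leave annotation release and strand setting not given in the sources used here. Of 54232 identifiers, 54165 matched GENCODE M21.

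The 18016 genes kept by filterByExpr were TMM-scaled, then fitted in edgeR 4.0.16 under R 4.3.3 (quasi-likelihood test, terms for sex and genotype, or 1 mean per group for the interaction), with Benjamini-Hochberg adjustment across every tested gene and calls at 0.05. The SE is the log2 fold change divided by the root of F. DESeq2 1.42.0, limma-voom (limma 3.58.1) with and without library weights, other scalings and filters, other designs and leaving out each library were alternatives. Log2 CPM used a prior count of 2. The procedure was tested on simulated data.

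Members and gene lists were chosen with earlier results of these data known. Named genes are all members, Tbl1xr1, the 2 genes of smallest p in each pathway list (with Th and Dbh), and the genes of highest r; 1 gene under this rule is not reported here. Gnaq, Slc6a2, the 7 inhibitory neuron markers and the 5 astrocyte markers were named after their values were seen. Replicate pairs differed by a chi-square of 9.86 to 170 per degree of freedom.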

Additional observations from a re-analysis of the deposited data

Results flagged for a closer look

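Adra2c in female mutant 3 stood at 2.71 CPM, far from the other 5 mutant libraries (9.98 to 13.8 CPM). The gap to the next library was 0.656 of the range of the 6 mutants, past Dixon's critical value of 0.625. It was the 1 value past it among 28 ends examined (the highest and lowest library of each genotype for 7 genes), and chance alone flags about 1 in 20 groups. The 7 counts behind it allow 1.09 to 5.58 CPM (exact Poisson 95% interval). This library also had the lowest depth and the highest mitochondrial share, and its genes of high G and C content were low, while the part of these in the value was not tested.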

How the results depend on the processing

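No paired analysis was possible because each animal number occurs in a single group. The count of members called for genotype was 0 with edgeR, and 1 (Adra1a) with DESeq2, with limma-voom with library weights and with DESeq2 and female mutant 3 left out. It was 0 in each of the 12 fits that left out 1 library, which called 0% to 0.0108% of all tested genes. Members called for sex or for the interaction, and pathway genes called for genotype, were 0 under every alternative run. Over 23 alternatives Adra1a stayed between -0.46 and -0.36 for genotype, the first with library totals in place of TMM, and the number of members lower ran from 4 (of the 6 left by a filter of 1 CPM in 6 libraries) to 6. Adra1b ran from -0.52 to -0.21, Adra1d from -0.37 to -0.03, and Adra2c from -0.36 to -0.14. Adra2a ran from -0.0023 to 0.23, Adra2b from -0.45 to 0.04 and Adrb1 from -0.07 to 0.07. By the longest transcript 4 genes changed place in the order of levels, and 0 did when any 1 wild-type library was left out. None of the sex or interaction effects was called, and those near 0 changed sign. For the interaction, Adra1a became 0.0012 with limma-voom, 1e-04 with RLE and 0.02 with 1 CPM in 6 libraries. Adra2a became 0.22 with library weights, 0.21 with weights and 0.07 with DESeq2 when female mutant 3 was left out, and Adrb1 -0.17 with library totals and -0.01 with DESeq2 without that library. For sex, Adra1b became -0.08 with library totals, and with DESeq2 without female mutant 3 Adra2a became 0.03 and Adra2c 0.01. Leaving out 1 library at a time gave sex effects of -0.03 to 0.01 for Adra1a, -0.10 to 0.09 for Adra1b, -0.21 to 0.03 for Adra2a and -0.20 to 0.01 for Adra2c, and interactions of -0.05 to 0.05 for Adra1a, -0.49 to 0.06 for Adra2a, -0.61 to 0.23 for Adra2b and -0.07 to 0.17 for Adrb1. The causes of these shifts were not tested. Adra2b had 12 to 42 counts in the 11 deep libraries, and the members had 1 to 59 counts in female mutant 3, which bounds the precision of these values.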
